A study of Arabidopsis thaliana with 3 samples.

Results

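The Aux/IAA and ARF genes encode the transcriptional core of the auxin response, and here they were examined for chromatin regions of the histone demethylase homologue LDL1 in Arabidopsis thaliana. The 51 members, 29 Aux/IAA genes and 22 ARF genes, were taken by name from a list, and all 51 were matched to a locus among the 27444 nuclear protein-coding genes of the annotation. Chromatin immunoprecipitation followed by sequencing was done on Col-0 seedlings of 14 days, grown in long days at 22 °C, with a transgene for an LDL1 fusion to green fluorescent protein (GFP) under the LDL1 promoter. All libraries came from that line: 2 biological replicates of ChIP with an antibody against GFP, each from pooled immunoprecipitations, and 1 input. Whether the line kept its own LDL1 gene intact is not given by the labels. No library of plants without the transgene was analysed here. The ChIP data are a single set of 5928 regions, each a start and an end on TAIR10, with a median width of 300 bp and no score, count or replicate value. Values for a gene therefore carry no replicate error, no depth can be given, and no test was made of any count below. A region was assigned to every gene that it touched by at least 1 bp after the gene had been extended by 1 kb at both ends.

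ARF proteins are transcription factors that bind auxin response elements in DNA. Aux/IAA proteins bind ARFs, recruit TOPLESS corepressors and so keep ARF target genes off. Auxin joins Aux/IAA proteins to the TIR1/AFB receptors, which mark them for degradation and release the ARFs. Several Aux/IAA genes are themselves induced by auxin, so that the repressors act in a negative feedback loop. LDL1 belongs to the family of LSD1-like enzymes, which remove methyl groups from a lysine of histone tails.

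Regions were found at 9 of the 51 genes (17.6%), against 3350 of all 27444 protein-coding genes (12.2%). The Aux/IAA share lay below that background, on 2 genes only, and the ARF share above it. Among the Aux/IAA genes 2 of 29 held a region (6.9%), namely IAA16 and IAA32, and 27 did not. With gene bodies alone the Aux/IAA count was also 2 of 29 and the ARF count 6 of 22, against a matching background of 7.68%. The Aux/IAA count was thus near that background, and no shortage at the repressors can be read from it. Among the ARF genes 7 of 22 held a region (31.8%), namely ARF2, ARF14, ARF15, ARF19, ARF20, ARF21 and ARF22. Of these 7, 5 belong to the tandem ARF cluster on chromosome 1, where 5 of 7 genes held a region (71.4%). Outside the cluster the count was 2 of 15 ARF genes (13.3%), close to the background, so the higher ARF share came from the cluster genes. ARF genes are longer than Aux/IAA genes, with a median of 3670 bp against 1740 bp. Of all protein-coding genes within the ARF range of lengths (2973 to 5735 bp) 12.8% held a region. Within the Aux/IAA range (986 to 3137 bp) 12.2% did. The ranges overlap and lengths within them were not matched, so a part of gene length in the counts was not tested.

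**Figure D1:**
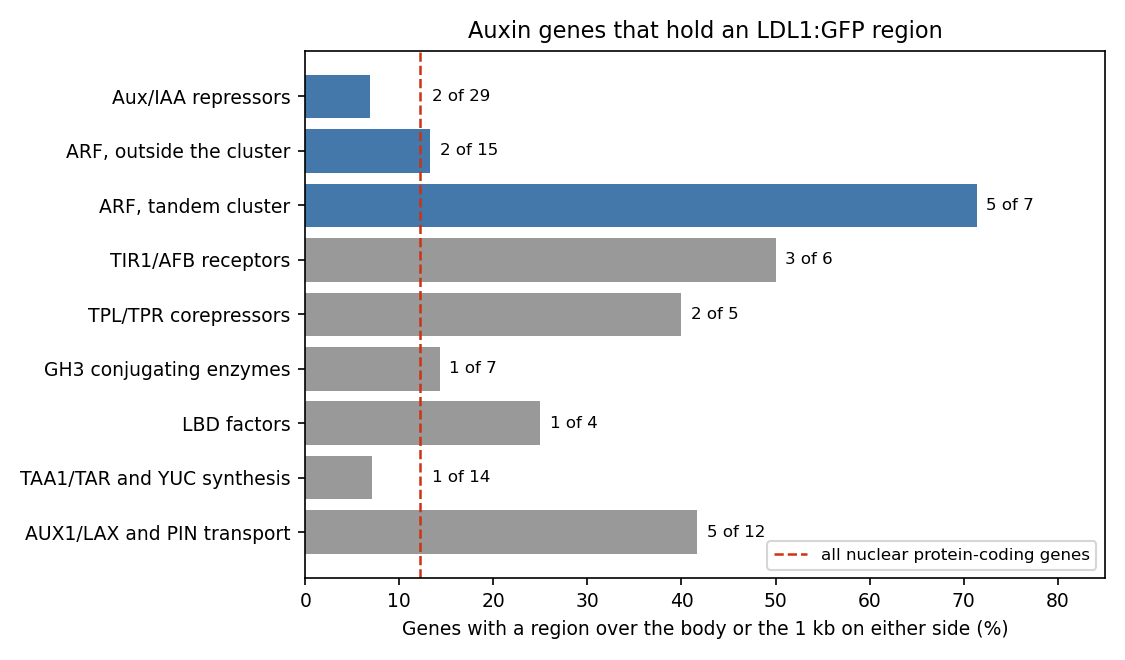
Percentage of genes in each list of protein-coding auxin genes with an LDL1:GFP region over the body or the 1 kb on either side, with counts beside the bars; the dashed line is the share of all nuclear protein-coding genes, 12.2%. The tandem ARF cluster stands at 5 of 7 genes. The Aux/IAA repressors, at 2 of 29, lie below the line, but near the matching background when gene bodies alone are counted.

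The 9 genes held 13 regions, none of them shared between members. Their widths ran from 263 to 482 bp with a median of 311 bp, near the median of all regions, and 7 of the 13 were at least as wide as that median. None of the 13 overlapped a tRNA, snRNA or rRNA gene. Input intervals, which mark sequence with aligned input reads, covered 12 of the 13 regions over their whole length, and the region at ARF22 over 95.3%. Among all regions 76.8% were covered whole. In 8 of the 9 genes a region overlapped the gene body, and ARF2 was the exception. In the background the body was overlapped in 7.68% of protein-coding genes, which is 62.9% of those that held a region.

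**Figure D2:**
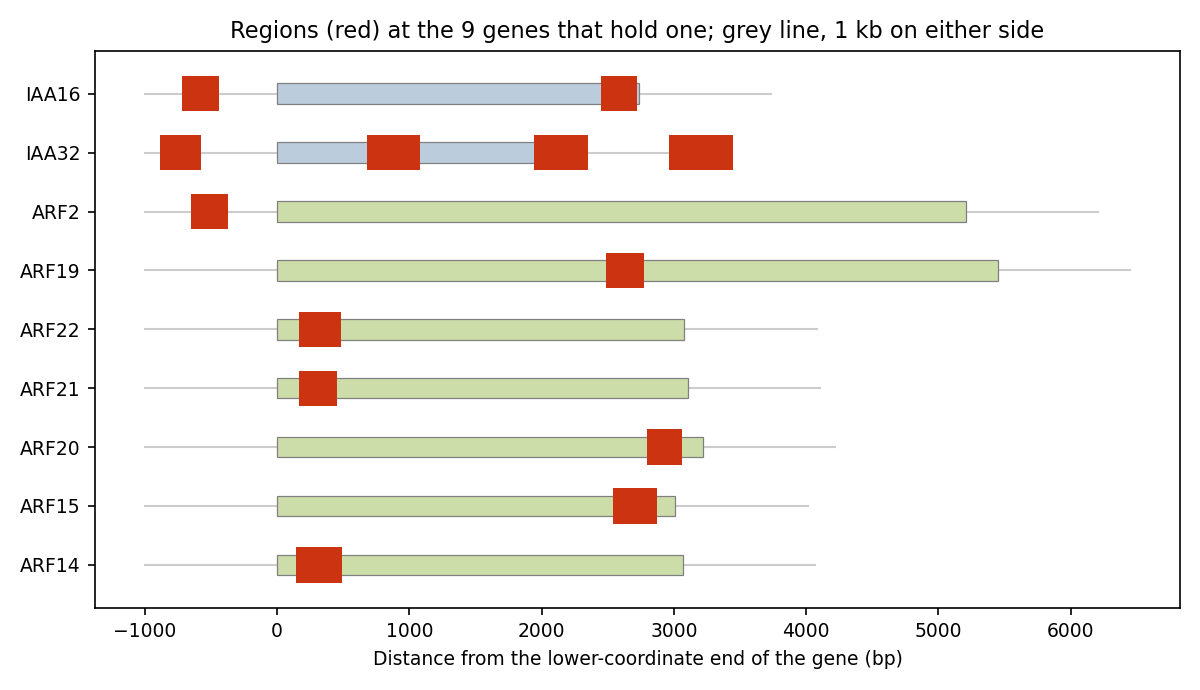
LDL1:GFP regions (red) at the 9 Aux/IAA and ARF genes that held one, drawn to scale against the gene body (blue for Aux/IAA, green for ARF) and the 1 kb on either side (grey line), by distance in bp from the lower-coordinate end of the gene. The 5 tandem ARF genes each carry a region just inside an end, the ARF19 region lies in the middle of the gene, and IAA32 carries 4 regions.

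IAA32 held the most regions of any member, 4, a number reached by 66 protein-coding genes (0.24%). The gene encodes an Aux/IAA protein without the usual degron, the short motif that the auxin receptors bind, and it takes part in apical hook development. It lies at 117969 to 120095 on chromosome 2 (AT2G01200), 0.118 Mb from the chromosome end. A region of 403 bp (118647 to 119049) lay inside the gene, with its midpoint at 41.3% of the gene's length from the lower-coordinate end. A region of 407 bp (119914 to 120320) crossed the higher-coordinate end and shared 182 bp with the gene. A region of 311 bp (117081 to 117391) lay 578 bp outside the lower end, and a region of 482 bp (120931 to 121412), the widest at any member, lay 836 bp outside the higher end. The neighbouring genes share these regions: the first of the flanking pair overlapped PDE331, and the region across the end and the other flanking region overlapped AT2G01210, a gene whose body itself overlaps IAA32.

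The surroundings of IAA32 were dense in regions. Within 100 kb on either side, 40 of 45 other protein-coding genes held a region (88.9%), the highest local share at any member. Over all arms, 33.4% of protein-coding genes in the outer 1 Mb held a region and 9.7% of those farther in. IAA34, which like IAA32 lacks the usual degron and acts with it in the apical hook, lies 5.18 Mb from the chromosome end and held no region, with the nearest 15565 bp away. Of the 6 Aux/IAA genes whose proteins lack or carry a changed degron (IAA20, IAA30, IAA31, IAA32, IAA33 and IAA34), IAA32 alone held a region, and of the other 23 only IAA16 did.

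IAA16 encodes a canonical Aux/IAA repressor, close in sequence to IAA7, IAA14 and IAA17. The gene lies at 1288155 to 1290891 on chromosome 3 (AT3G04730), 1.29 Mb from the chromosome end. A region of 272 bp (1290606 to 1290877) lay wholly inside the gene and stopped 14 bp short of its higher-coordinate end. A region of 277 bp (1287439 to 1287715) lay 440 bp outside the lower end, within 1 kb of PR4, a pathogenesis-related gene, whose body it did not overlap. Neither region overlapped another gene. Here the surroundings were sparse, with a region at 4 of 62 other protein-coding genes within 100 kb (6.45%). The relatives IAA7, IAA14 and IAA17 held none, with their nearest regions 16267, 103585 and 4943 bp away.

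The response factors of the activating class, ARF5, ARF6, ARF7, ARF8 and ARF19, held a region in 1 of 5 cases (20%, background 12.2%). ARF19 acts with ARF7 in lateral root formation and lies at 6627683 to 6633133 on chromosome 1 (AT1G19220). Its region of 290 bp (6630170 to 6630459) had its midpoint at 48.3% of the gene's length, with more than 2 kb of gene on either side, and touched no other gene. The partner ARF7 (AT5G20730) held none, and its nearest region lay 4187 bp away. ARF5, which is MONOPTEROS and patterns the embryo, ARF6 and ARF8, which act together in flower maturation, lay 18348, 115321 and 105011 bp from a region.

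Among the repressing ARF genes outside the cluster, miR160 targets aside, ARF2 held the only region, 1 of 7 genes (14.3%, background 12.2%). ARF2 limits organ growth and promotes senescence, and lies at 24910191 to 24915395 on chromosome 5 (AT5G62000). Its region of 284 bp (24909540 to 24909823) lay 368 bp outside the lower end of the gene and overlapped AT5G09045, a long non-coding RNA gene, so that it cannot be given to either. ARF1, ARF3 (ETTIN, a regulator of gynoecium patterning), ARF4, ARF9, ARF11 and ARF18 held none. The miR160 targets ARF10, ARF16 and ARF17 also held none, with their nearest regions 6295, 111751 and 26472 bp away. These 3 genes are too few to set against the background.

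ARF12, ARF13, ARF14, ARF15, ARF20, ARF21 and ARF22 are close relatives that arose by recent duplication and are known from expression in seeds and embryos. They are spread over 668 kb of chromosome 1 (12443547 to 13111700), with gaps of 18.6 to 346 kb between neighbours, so that they are a loose cluster with other genes between them. ARF14 (AT1G35540) held a region of 351 bp (13108777 to 13109127). ARF15 (AT1G35520) held a region of 331 bp (13085362 to 13085692). ARF20 (AT1G35240) held a region of 263 bp (12930098 to 12930360). ARF21 (AT1G34410) held a region of 286 bp (12577889 to 12578174), and ARF22 (AT1G34390) a region of 321 bp (12556168 to 12556488). Each gene thus held exactly 1 region, each wholly inside the gene and of ordinary width.

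Measured from whichever gene end was nearer, these 5 regions lay at similar distances. The edge facing the nearer gene end was 143 bp inside ARF14, 138 bp inside ARF15, 163 bp inside ARF20, 167 bp inside ARF21 and 163 bp inside ARF22. The other edge lay 426 to 494 bp from the same end, and a stretch of 259 bp, from 167 to 426 bp inside the gene, was common to all 5. In ARF14, ARF21 and ARF22 this was the lower-coordinate end, with midpoints at 9.97 to 10.5% of the gene's length. In ARF15 and ARF20 it was the higher-coordinate end, with midpoints at 89.9 and 90.8%. Strand was not used here, so whether these ends are starts or stops, and whether they are the same kind of end in all 5 genes, is not known. Of all protein-coding genes 227 (0.827%) held a region wholly inside with its nearer edge 100 to 200 bp from a gene end, which is 10.8% of the 2108 genes whose body was overlapped. None of the other 8 regions at members had that position. Only those inside IAA16, IAA32 and ARF19 could have had it, since the rest lay outside the gene or across its end. The window of 100 to 200 bp was chosen after the distances in the cluster had been seen.

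**Figure D3:**
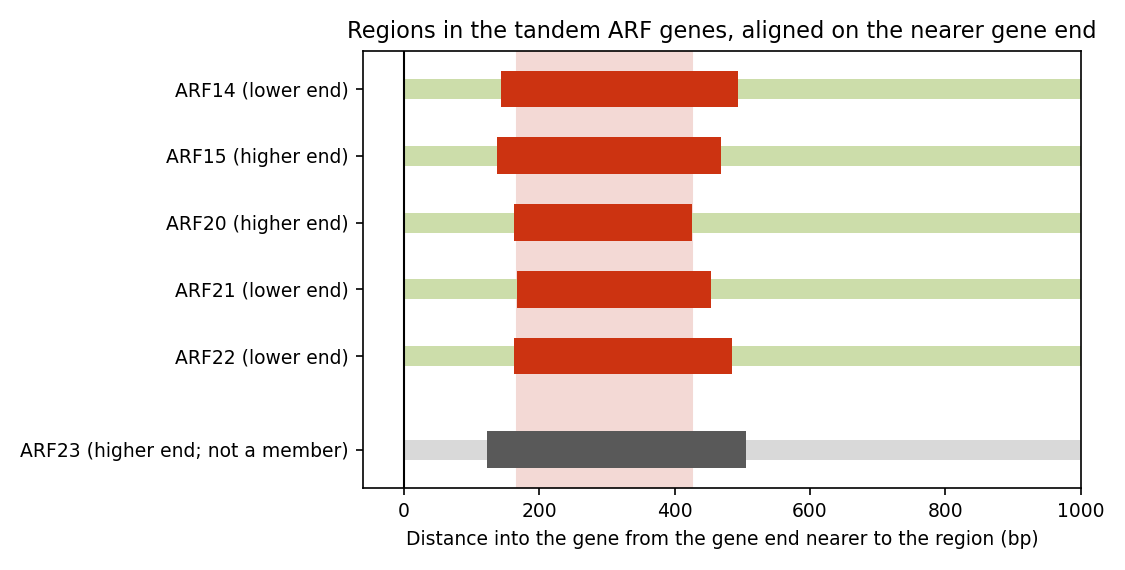
Regions in the 5 tandem ARF genes that held one (red), by distance in bp into the gene (green) from the gene end nearer to the region, with the stretch common to all 5 shaded. The regions begin 138 to 167 bp inside the gene, from the lower-coordinate end in 3 genes and the higher in 2; the region in ARF23 (grey), a relative elsewhere on chromosome 1 that is not among the 51 genes, begins 122 bp inside.

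ARF23 (AT1G43950), a short relative of these genes elsewhere on chromosome 1, is outside the list of 51 and was looked at after the pattern had been seen. It spans 16672582 to 16673952, or 1371 bp, and held a region of 383 bp (16673448 to 16673830) whose edge lay 122 bp inside the higher-coordinate end. The shared stretch at 167 to 426 bp from the end was contained in it. Input intervals covered 91.1% of the ARF23 region. Within 100 kb of ARF23, 4 of 21 other protein-coding genes held a region, against 9.7% of all genes outside the outer 1 Mb of the arms. How reads with several matches were treated is not known for ARF23 either, so this region may not be separate from those in the cluster.

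The remaining cluster genes, ARF12 and ARF13, held no region. The nearest lay 3078 bp from ARF12 (AT1G34310), inside the neighbouring gene AT1G34300, and 58510 bp from ARF13 (AT1G34170). The input covered the stretch at 167 to 426 bp from either end of ARF12 and ARF13 over 100% of its length. In ARF22 it covered 94.2% of that stretch at the end with the region. Over whole gene bodies the input covered 95.4 to 100% of the 7 cluster genes, against 98.8 to 100% of the other 15 ARF genes. The cluster genes resemble each other closely in sequence and the treatment of reads with several matches is not given in the sources used here, so regions in separate copies and a region in 1 copy that shares its reads with the others cannot be told apart.

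The rest of the cluster stretch was poor in regions. It held 9 regions, of which 5 lay in the ARF genes, although the 7 ARF bodies make up 3.24% of its length. The density was 13.5 regions per Mb, and 5.99 per Mb without the ARF regions, against 32.2 per Mb over chromosome 1. That average is not a like comparison, since it takes in the arm ends, while the stretch lies 12.4 Mb from the chromosome end. Over all arms, 33.4% of protein-coding genes in the outer 1 Mb held a region and 9.7% of those farther in. Of the 110 other protein-coding genes in the stretch, 2 held a region (1.82%), against 9.7% of all genes outside the outer 1 Mb of the arms. The body was overlapped in 1 (0.909%), against 7.68% of all protein-coding genes, arm ends included. Neither background share was matched to the stretch in distance from the chromosome end, gene length or gene density, so these are not like comparisons either. The genes with a region were AT1G34300, with a region of 197 bp inside the gene, and AT1G35242, which lay 620 bp from the ARF20 region. The stretch also contains 58 pseudogenes.

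**Figure D4:**
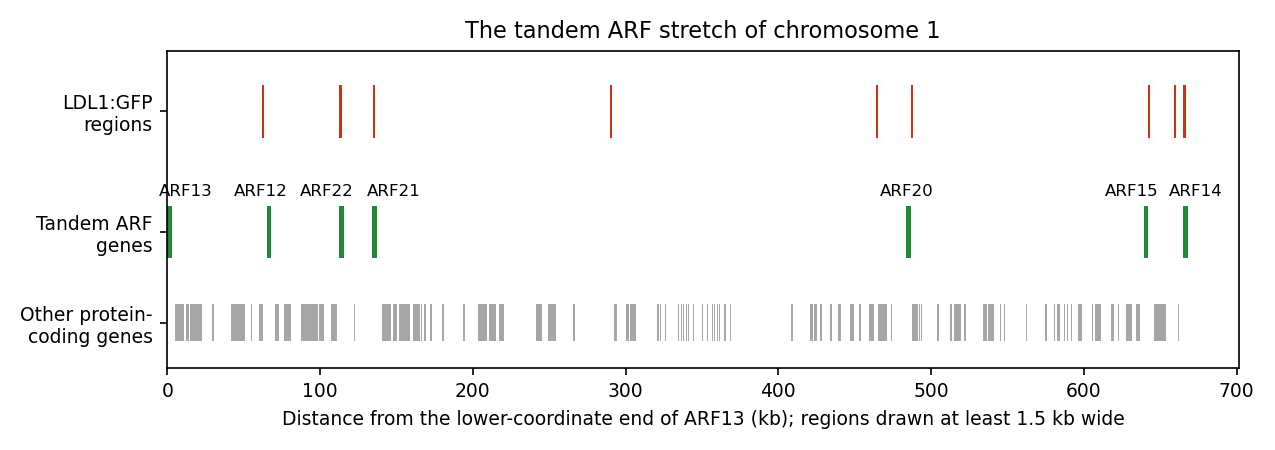
The stretch of chromosome 1 with the tandem ARF genes, with LDL1:GFP regions (red), tandem ARF genes (green) and other protein-coding genes (grey) by distance in kb from the lower-coordinate end of ARF13; regions are drawn at least 1.5 kb wide to be visible. Of the 9 regions 5 coincide with an ARF gene, and 2 of the 110 other genes hold one (1.82%). Of all protein-coding genes outside the outer 1 Mb 9.7% hold one, a share not matched to the stretch in position or gene length.

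The 42 members without a region lay at a median of 18413 bp from the nearest one. This was 18478 bp for the 27 Aux/IAA genes and 18348 bp for the 15 ARF genes, against 20900 bp for all protein-coding genes without a region. The members just outside the limit of 1 kb were IAA29, at 1868 bp, IAA15, at 1881 bp, and ARF18, at 2022 bp. Those just inside it, but not overlapped, came to ARF2 alone, at 368 bp. IAA15 and ARF18 lie 0.205 and 0.568 Mb from a chromosome end. The farthest were IAA18, at 398895 bp, ARF1, at 234493 bp, and IAA4, at 181817 bp. No other protein-coding gene within 100 kb of these 3 held a region, which follows from those distances and is no separate result.

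The other Aux/IAA genes without a region included several known to be induced early by auxin. Of these, IAA1, IAA2, IAA3, IAA5, IAA6 and IAA19 lay 91815, 31333, 13917, 23340, 32761 and 9312 bp from the nearest. IAA12, which is BODENLOS and restrains ARF5 in the embryo, lay 19095 bp away, and IAA28, a repressor of lateral root formation, lay 96925 bp away. The input covered the bodies of the 29 Aux/IAA genes over 94.9 to 100% of their length, so sequence without any aligned input read was scarce in them.

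**Figure D5:**
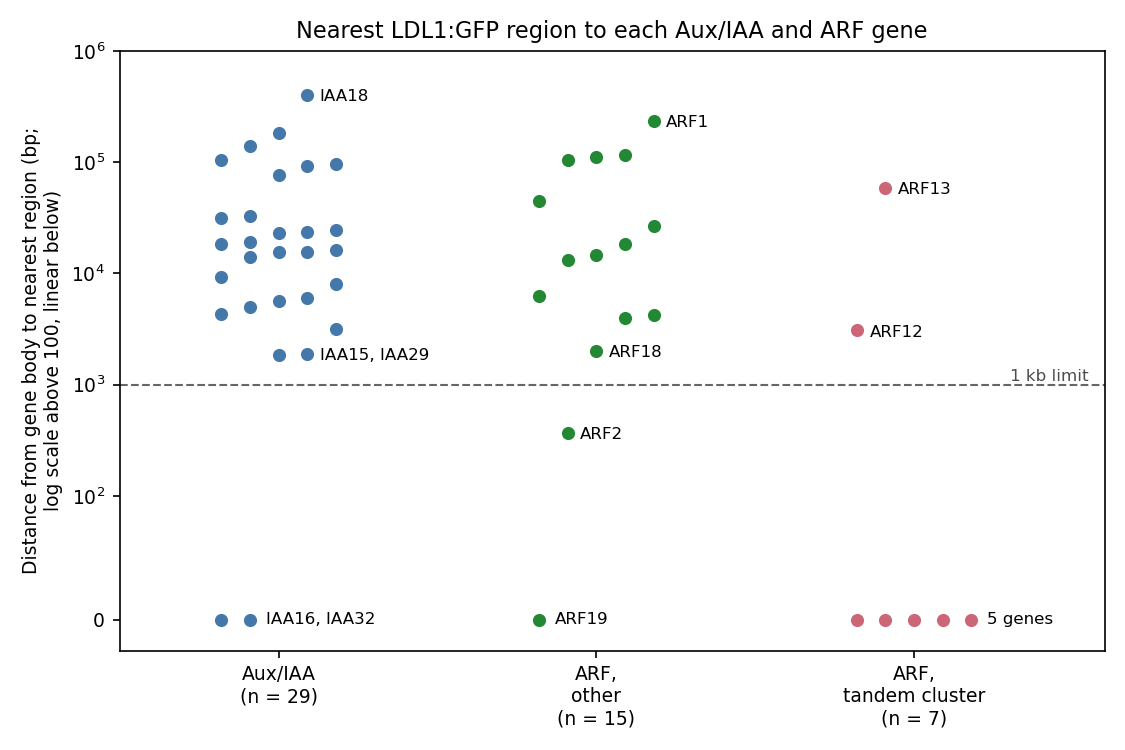
Distance in bp from the body of each Aux/IAA and ARF gene to its nearest LDL1:GFP region (log scale above 100 bp, linear below; 0 where the body is overlapped), with the limit of 1 kb dashed. The Aux/IAA genes reach up to 398895 bp (IAA18) and the ARF genes outside the cluster up to 234493 bp (ARF1), and 5 of the 7 cluster genes sit at 0.

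Elsewhere in the auxin pathway, regions were found at 13 of 48 protein-coding genes (27.1%, background 12.2%). In the outer 1 Mb of the arms, where the background is 33.4%, these were 4 of 5, namely TIR1, TPR1, LAX1 and PIN4. Farther in, where it is 9.7%, they were 9 of 43 (20.9%). The lists were chosen with earlier results of these data known, so these shares are not independent of the data. Within 100 kb of TIR1, TPR1, LAX1 and PIN4, 41.8%, 30.8%, 50% and 69.6% of other protein-coding genes held a region. At the receptors 3 of 6 held a region, at TIR1, AFB2 and AFB4. The AFB4 region lay 692 bp away and overlapped the bodies of 2 other genes. At the TOPLESS corepressors 2 of 5 did. TPR1 held a region of 318 bp across its lower end, which also overlapped PTAC17, and a region of 265 bp 76 bp beyond its higher end. TPR2 had a region of 466 bp at a distance of 154 bp, which overlapped another gene, AT3G03375, and TPL, the founding member, held none.

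Among auxin-induced genes, GH3.3, which encodes an auxin-conjugating enzyme, was the only 1 of 7 GH3 genes with a region, of 262 bp and 90 bp away. LBD16, a direct target of ARF7 and ARF19 in lateral root formation, was overlapped by a region of 220 bp, the only 1 of 4 LBD genes with a region. In auxin synthesis 1 of 14 genes held a region, the flavin monooxygenase gene YUC6, overlapped over 256 bp. In transport 5 of 12 did. The background for the GH3, LBD, synthesis and transport counts was 12.2%. The influx carrier gene LAX3 lay 4 bp from a region, and LAX1 lay 116 bp from a region that overlapped another gene, AT5G00745. The efflux carrier genes PIN2, PIN3 and PIN4 were overlapped, PIN4 by 5 regions. Of the PIN4 regions, 1 (183340 to 183604) lay inside the gene with its edges 160 and 425 bp from the higher-coordinate end. That placement is like the one in the tandem ARF genes, but it was looked for after those had been seen. Of all protein-coding genes whose body was overlapped, 10.8% held a region wholly inside with its nearer edge 100 to 200 bp from an end. A link between PIN4 and the cluster genes cannot be read from it.

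Of the small RNA genes that act directly or indirectly on ARF and receptor transcripts, none of the 11 miRNA genes held a region, against 5.83% of all 326 miRNA genes. The remaining gene of the list, TAS3, is annotated as another class of non-coding RNA. It is the precursor of the small RNAs that silence ARF2, ARF3 and ARF4, with a region of 220 bp (chromosome 3, 5861220 to 5861439) at a distance of 52 bp. Among the genes for miR160, miR167, miR390 and miR393 the nearest region, at MIR167B, lay 1335 bp away.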

How the data were processed

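The authors deposited coordinates only, as a set of ChIP regions and a set of input intervals, assigned here to groups by their names. Per the submitters' processing notes, Bowtie, SICER and the build TAIR10 were used, and their versions and settings are not given there. How the ChIP libraries were combined is not given in the sources used here. Coordinates are 1-based on TAIR10. Gene positions and names came from a RefSeq table for TAIR10.1, which has the same nuclear chromosomes. It gives no strand or exons, and no sequence was used, so the planned search for promoter motifs was not run. The names ARF1, ARF3 and ARF11 each fit 2 loci, and the auxin response factor was taken. Chromosome length is the end of the last input interval.

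The members and lists, and the protein classes within them, were chosen with earlier results of these data known. Every gene that holds a region is named, and for the others the nearest to and farthest from a region, the cluster genes and some relatives. The relatives, the early auxin-induced genes, ARF23 and the windows of 100 to 200 bp and 100 kb were chosen after values were seen. Counts were made by overlap in Python 3.11.15 with numpy 2.4.6 and pandas 2.3.3, figures with matplotlib 3.10.9, and the counting was tested on simulated data. Alternatives were other flanks (none, 500 bp, 2 kb), overlaps of at least 200 bp, wider regions, the nearest gene only, and leaving out regions.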

Additional observations from a re-analysis of the deposited data

How the results depend on the processing

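The Aux/IAA count of 2 was the same under 6 alternatives and moved under 3. It was 4 with 2 kb on either side, which added IAA15 and IAA29 (background 15.6%). With only regions as wide as the median or wider it was 1 (IAA32, background 5.66%). Without genes in the outer 1 Mb it was 1 of 24 (IAA16, background 9.7%). The ARF count of 7 stayed at 6 or 7 under 8 alternatives. It was 3 with the wider regions (ARF14, ARF15 and ARF22, background 5.66%) and 2 of 15 without the 7 tandem genes (background 12.2%). With gene bodies alone (background 7.68%), or with each region given to its nearest gene (background 8.56%), ARF2 dropped out. With only regions covered whole by input (background 10.7%) ARF22 did. Leaving out the outer 1 Mb and leaving out the tandem genes were chosen after seeing the data. Widths of 263 to 351 bp in the cluster lie around the median of 300 bp, so that limit splits regions of like width by construction. No paired analysis was possible because the regions are not separated by replicate, and for the same reason no replicate could be left out. The depth of the ChIP libraries is unknown, so a gene without a region is a gene without a deposited region.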

Other observations

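Of the 51 genes 7 lie in the outer 1 Mb of a chromosome arm (IAA9, IAA15, IAA20, IAA30, IAA32, ARF11 and ARF18), where 33.4% of protein-coding genes held a region. IAA32 was the only one of the 7 with a region, while the other 6 lay 1881 to 24562 bp from one. Around IAA30, 22 of 61 other protein-coding genes within 100 kb held a region (36.1%), and its own nearest region lay 4337 bp away. Around ARF18 the count was 18 of 56, and around IAA15 it was 19 of 65.

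Farther in, IAA29, a target of light and temperature signalling, lies 3 Mb from the chromosome end among genes of which 18 of 55 held a region (32.7%), with its own nearest region 1868 bp away. The neighbouring repressors IAA3 (SHY2) and IAA17 (AXR3) on chromosome 1 lay 13917 and 4943 bp from the same region of 385 bp.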
